A study of Homo sapiens with 12 samples.

Results

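The genes described here are 40 genes of homologous recombination, the Fanconi anaemia pathway and the kinases of the DNA damage checkpoint, chosen by gene symbol from 60612 usable rows of 1 table of read counts. All 40 symbols were found once each in the table, and all 40 passed DESeq2's filter on low counts in each comparison. RNA had been sequenced from ZR-75-1, a human breast cancer line that carries the oestrogen receptor. One genotype carried a control guide (sgControl), and in the other *RB1* was knocked out by CRISPR-Cas9. Each was grown for 5 days in DMSO, the solvent, or in 500 nM abemaciclib, which inhibits CDK4 and CDK6. That gave 4 groups of 3 libraries. All groups share the parental line. The study's methods describe single-cell sorting after editing, and the number of clones behind each genotype is not given in the sources used here, so a property of the clone and the loss of *RB1* cannot be told apart. The study describes its RNA-seq of this line as independent biological replicates run once, without naming the knockout libraries, and the labels only number the replicates.

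Homologous recombination repairs a double-strand break by copying from an intact sister chromatid. Break ends are resected to single strands, a recombinase filament is loaded with the help of BRCA1, BRCA2 and PALB2, the filament invades the sister, and the joined molecules are later dissolved or cut apart. The Fanconi core complex, with the conjugating enzyme UBE2T, attaches ubiquitin to FANCI and FANCD2 at DNA crosslinks, and the checkpoint kinases ATM, ATR, CHEK1 and CHEK2 hold the cell cycle while damage remains. Many genes of these pathways are known to be transcribed mainly in late G1 and S phase by E2F factors, which the retinoblastoma protein encoded by *RB1* restrains.

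Library totals ran from 39907318 to 81636393 counts. *RB1* itself had normalized counts of 4577 ± 368 (mean ± SD, n = 3) in sgControl cells in DMSO and 46.8 ± 6.26 in knockout cells in DMSO, a 97.0-fold difference. The proliferation gene *MKI67* of sgControl cells fell 75.9-fold with abemaciclib (log2 -6.25 ± 0.20, adjusted p = 1.65e-210), while in knockout cells its log2 fold change was -0.28 ± 0.20 (adjusted p = 0.309). In RNA from a whole culture, fewer cells in S phase and less RNA of a gene per cell cannot be told apart. Markers of the labelled line were present. The summed normalized count of 7 luminal markers lay between 624619 and 966230 in each library, and the basal markers *KRT5*, *KRT14* and *TP63* together never exceeded 12.1. The luminal sum, mostly keratins, hides opposite log2 fold changes with abemaciclib in sgControl cells, each with an adjusted p under 0.05. *KRT19* (0.60), *ESR1* (0.59), *FOXA1* (0.46) and *GATA3* (0.28) rose, and *KRT18* (-0.80), *KRT8* (-0.59) and *EPCAM* (-0.38) fell. Of 3 leukocyte markers, *PTPRC* and *CD3E* were under a mean of 10 in each group, but *LYZ*, the gene of lysozyme, rose with abemaciclib in sgControl cells, from normalized counts of 33.5, 16.7 and 22.7 to 438, 534 and 544 (4.39 ± 0.27, adjusted p = 5.19e-56). Of 4 stromal markers, *COL1A2* was under 10 in each group, while in the same comparison *LUM* rose from 3.26 ± 0.645 to 49.2 ± 15.5 (3.96 ± 0.53, adjusted p = 4.95e-13), *DCN* from 3.21 ± 2.13 to 20.5 ± 2.88 (2.64 ± 0.76, adjusted p = 0.00131) and *COL1A1* from 2245 ± 147 to 2903 ± 123 (0.37 ± 0.07, adjusted p = 6.72e-08). The summed stromal markers lay between 1891 and 2067 in knockout cells in DMSO and between 2877 and 3097 in sgControl cells in abemaciclib, the groups with the lowest and highest sums, and most of it was *COL1A1*. Mitochondrial genes held 2.82% to 4.13% of counts in DMSO and 5.44% to 8.53% in abemaciclib. The part of these shifts in the results below was not tested.

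One library stood apart. Against the other libraries of its group, replicate 1 of sgControl in DMSO was low in long transcripts and high in short ones. Across genes whose normalized counts averaged 100 or more, its log2 deviation fell with transcript length with a Spearman rho of -0.73, which describes 1 library and not replicates. The 2747 longest transcripts had a median deviation of -0.26 and the 2747 shortest had 0.25. Of the 40 genes, 27 were lower in that library than in both other sgControl libraries in DMSO, among them *RAD50*, *ATM*, *ATR*, *BRCA2* and *POLQ*. For the other libraries, each read against its own group, this count ran from 4 to 21. The share over all genes was not computed, so the count does not set the 40 apart from other genes. Results that rest on replicate 1 of sgControl in DMSO are given with and without it.

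Together the 40 genes held 0.132% to 0.160% of all counts in sgControl cells in DMSO and 0.0651% to 0.0690% after abemaciclib. In knockout cells they held 0.125% to 0.131% in DMSO and 0.118% to 0.123% in abemaciclib. The sgControl libraries in abemaciclib were thus lowest and did not overlap with any other group. Per kilobase of the MANE Select transcript, the annotation's chosen transcript of each gene, the mean normalized count in sgControl cells in DMSO was highest for *UBE2T*, at 11537. It was followed by *RMI2* at 2128, *RAD51C* at 1640.3, *FANCI* at 1509 and *RBBP8* at 1502 normalized counts per kilobase. The lowest levels per kilobase were those of *XRCC2* at 43.1 and *FANCB* at 50.4. These levels assume whole-transcript libraries, as the labels name them.

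**Figure D1:**
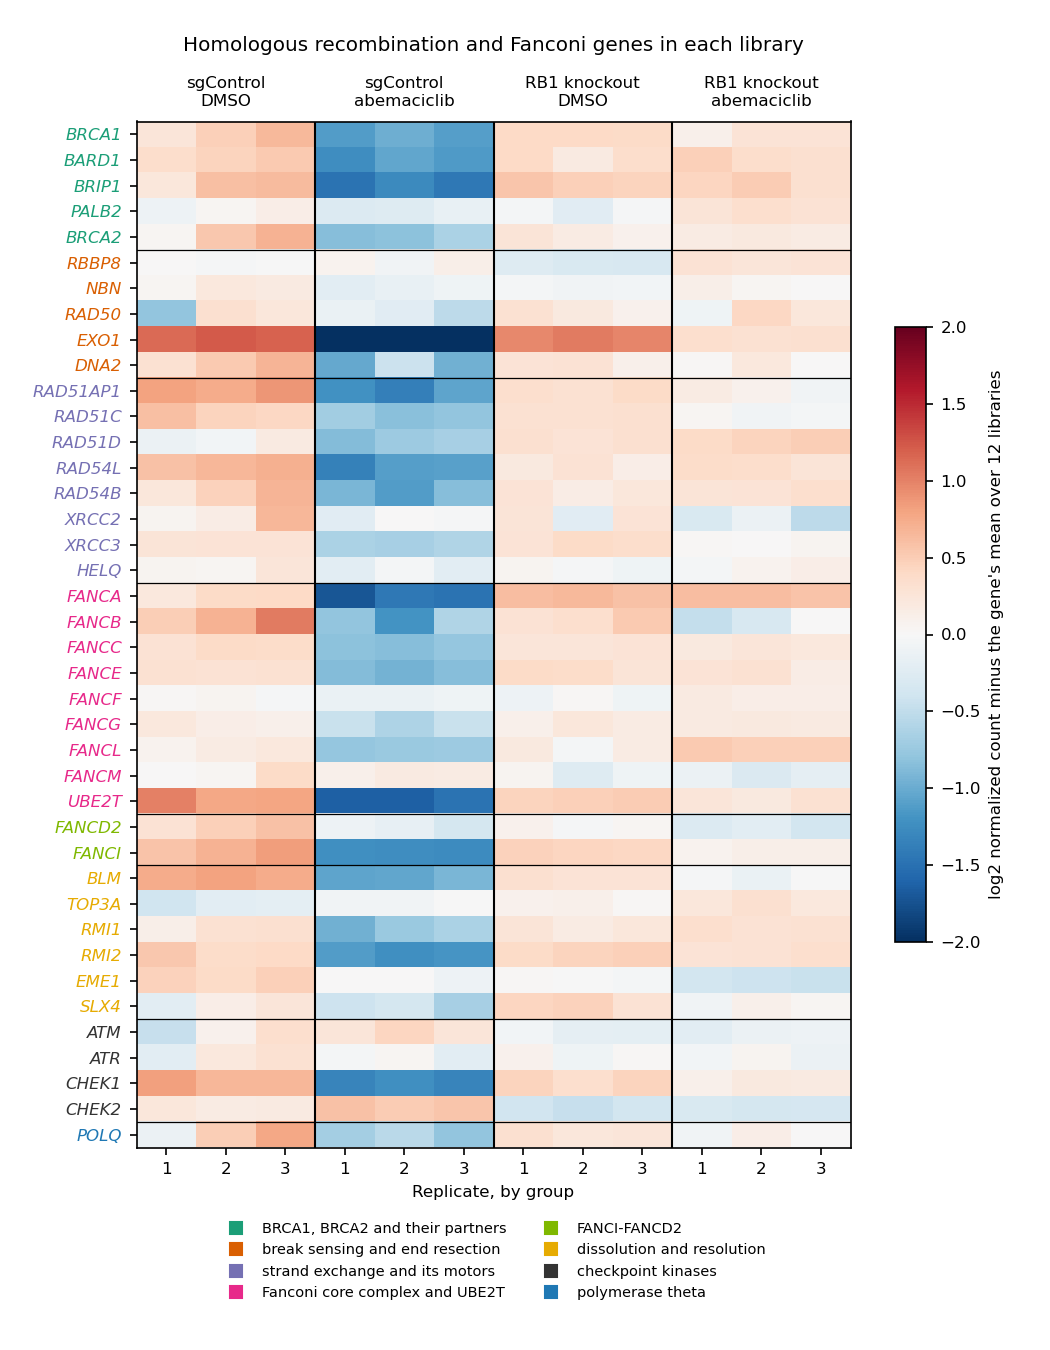
Heat map of the 40 genes (rows, ordered and coloured by role) in the 12 libraries (columns, by group and replicate). Colour gives the log2 normalized count minus the gene's mean over the 12 libraries, and the colour scale ends at 2 log2 units in either direction, which *EXO1* exceeds. Most rows are bluest in the sgControl libraries in abemaciclib, while *CHEK2*, *TOP3A*, *RBBP8*, *ATM*, *FANCM*, *EME1*, *FANCD2* and *XRCC2* have their lowest group mean in other libraries.

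In sgControl cells, abemaciclib lowered most of the set. With an adjusted p under 0.05 in DESeq2, 32 of the 40 genes fell and 2 rose, where 24.8% of all 22723 genes tested fell and 25.0% rose. Falls of at least 2-fold were found for 21 of the 40, against 9.56% of all genes tested. The median log2 fold change over the 40 genes was -1.06, beside 0.01 over all genes tested. Leaving out replicate 1 of sgControl in DMSO gave 34 of the 40 lower and 2 higher. Over all genes it gave 5687 lower and 5680 higher, beside 5630 and 5675 with all libraries. Falls were found in each role group.

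The largest fall was that of *EXO1*, the 5′ to 3′ exonuclease of long-range end resection. Its normalized counts in sgControl cells were 3708, 3941 and 3821 in DMSO and 323, 290.5 and 289.8 in abemaciclib. The highest treated library was thus far under the lowest untreated one. The fall was 12.7-fold (log2 fold change -3.67 ± 0.07, SE), with an adjusted p too small for DESeq2 to write. *DNA2*, the nuclease and helicase that also resects over long distances, fell 2.44-fold (-1.28 ± 0.15, adjusted p = 3.49e-16). Log2 fold changes of the genes of the first steps at a break were nearer to 0. *NBN*, a subunit of the MRE11 complex that senses breaks, fell by a factor of 1.22 (-0.29 ± 0.06, adjusted p = 9.42e-06). *RBBP8*, which encodes the resection factor CtIP, had normalized counts of 4958, 4880.1 and 4924 in DMSO and 5159, 4716 and 5331 in abemaciclib. These ranges overlapped, and its log2 fold change of 0.04 ± 0.05 (adjusted p = 0.546) had a 95% interval of -0.06 to 0.15.

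*RAD50*, the other member of the MRE11 complex in the set, depended on 1 library. Its normalized counts were 274, 592 and 556 in DMSO and 433, 406 and 330.3 in abemaciclib in sgControl cells. The first untreated library was lower than every treated one, while the other 2 were higher than all of them. With all libraries the log2 fold change was -0.28 ± 0.22 (adjusted p = 0.290), and without replicate 1 of sgControl in DMSO it was -0.56 (adjusted p = 1.34e-04). In the annotation, 76.9% of the exon bases of *RAD50* also lie in a second gene model on the same strand, so how the authors' counting shared those reads bears on its counts.

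Of *BRCA1*, *BRCA2* and their partners, all 5 fell, with a median log2 fold change of -1.52. *BRCA1*, a ubiquitin ligase that promotes resection and filament loading, had normalized counts of 2382, 2809.8 and 3171 in DMSO and 935, 1029 and 945 in abemaciclib. *BARD1*, its obligate partner, had 1025, 1097 and 1163 in DMSO and 341, 394 and 366 in abemaciclib. In both genes the treated libraries lay well under the untreated ones, and the falls were 2.88-fold (-1.52 ± 0.10, adjusted p = 1.05e-55) and 2.98-fold (-1.58 ± 0.09, adjusted p = 2.28e-64). The helicase gene *BRIP1* fell 3.70-fold (-1.89 ± 0.11, adjusted p = 6.22e-64) and *BRCA2*, which loads the recombinase, fell 2.32-fold (-1.22 ± 0.14, adjusted p = 8.92e-18). *PALB2*, the bridge between BRCA1 and BRCA2, had 1594, 1753 and 1857 in DMSO and 1411, 1420.5 and 1543 in abemaciclib. Its ranges did not overlap, but the fall was only 1.19-fold (-0.25 ± 0.08, adjusted p = 0.00329).

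Among the 8 genes of strand exchange, 7 fell. *RAD51AP1*, which stimulates strand invasion, had normalized counts of 1859.9, 1795 and 1969 in DMSO and 460.2, 416 and 516 in abemaciclib, a 4.04-fold fall (-2.01 ± 0.09, adjusted p = 9.82e-112). The motor proteins *RAD54L* and *RAD54B* fell 3.57-fold (-1.83 ± 0.09) and 2.69-fold (-1.43 ± 0.17). *RAD54B* has most of its exon bases in common with *FSBP* on the same strand. The recombinase paralogues, which form small complexes that help the filament, fell by different amounts: *RAD51C* 2.41-fold (-1.27 ± 0.07, adjusted p = 1.14e-80), *XRCC3* 1.86-fold (-0.90 ± 0.05, adjusted p = 7.75e-61) and *RAD51D* 1.69-fold (-0.76 ± 0.09, adjusted p = 2.10e-16). *XRCC3* lies opposite *KLC1*, which covers 76.7% of its exon bases on the other strand. *RAD54L*, *FANCA*, *EME1* and *CHEK1* lie opposite other genes over 13.4% to 19.9% of theirs. The fourth paralogue, *XRCC2*, had counts of 172, 183 and 261 in DMSO and 141, 166 and 162 in abemaciclib. The groups did not overlap, yet its log2 fold change of -0.40 ± 0.19 did not pass in DESeq2 (adjusted p = 0.0736). It passed in edgeR's quasi-likelihood test (adjusted p = 0.0438) and without replicate 1 of sgControl in DMSO (adjusted p = 0.0198). The helicase gene *HELQ* fell 1.21-fold (-0.27 ± 0.10, adjusted p = 0.0173). That call was lost when any of 3 single libraries was left out (adjusted p of 0.0824 to 0.141).

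In the Fanconi core complex with *UBE2T*, 8 of 9 genes fell. *UBE2T*, the ubiquitin-conjugating enzyme of the pathway, had normalized counts of 11218, 9529 and 9640.2 in DMSO and 1809, 1816 and 2007 in abemaciclib, with no overlap, a 5.39-fold fall (-2.43 ± 0.07, adjusted p = 1.26e-244). *FANCL*, the ubiquitin ligase that works with it, fell 1.87-fold (-0.90 ± 0.10, adjusted p = 3.30e-17). The core subunits spread over a wide range. *FANCA* fell 3.63-fold (-1.86 ± 0.08, adjusted p = 5.04e-121), *FANCB* 3.06-fold (-1.61 ± 0.22), *FANCE* 2.27-fold (-1.18 ± 0.11), *FANCC* 2.24-fold (-1.16 ± 0.06) and *FANCG* 1.56-fold (-0.64 ± 0.06). *FANCF* had 1516, 1557 and 1467 in DMSO and 1358, 1360.3 and 1412 in abemaciclib. Its groups did not overlap, but its log2 fold change of -0.13 ± 0.06 (adjusted p = 0.0439) no longer passed when any of 10 of the 12 libraries was left out, and the replicate block also ended the call (adjusted p = 0.0864). *FANCM*, the translocase that anchors the complex to DNA, had a log2 fold change of -0.01 ± 0.12 with a 95% interval of -0.25 to 0.22.

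FANCI and FANCD2 form the pair that the core complex modifies, and both genes fell. *FANCI* had normalized counts of 6520.0, 7081 and 7821 in DMSO and 1871, 1850.0 and 1829 in abemaciclib, a 3.86-fold fall (-1.95 ± 0.07, adjusted p = 1.04e-192). *FANCD2* had 2903, 3309 and 3545 in DMSO and 2206, 2114 and 1853 in abemaciclib, a 1.58-fold fall (-0.66 ± 0.09, adjusted p = 1.30e-13). Neither gene's groups overlapped, and the 95% intervals of the log2 fold changes were -2.08 to -1.82 and -0.83 to -0.49.

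The dissolvasome takes apart double Holliday junctions with the helicase BLM, the topoisomerase TOP3A and the cofactors RMI1 and RMI2. *BLM* fell 3.38-fold (-1.76 ± 0.08, adjusted p = 4.07e-111), *RMI2* 3.07-fold (-1.62 ± 0.06, adjusted p = 2.85e-136) and *RMI1* 2.02-fold (-1.02 ± 0.09, adjusted p = 6.95e-31). *TOP3A* had normalized counts of 1502, 1705 and 1735 in DMSO and 1884, 1885 and 1964 in abemaciclib, all treated libraries being above all untreated ones, and rose 1.16-fold (0.21 ± 0.07, adjusted p = 0.00377). This rise was small. It was lost with size factors from total counts (0.08, adjusted p = 0.509) and when only the sgControl libraries were fitted (0.19, adjusted p = 0.0695). The genes that cut joined molecules, *EME1*, a nuclease subunit, and *SLX4*, a nuclease scaffold, fell 1.39-fold (-0.47 ± 0.07, adjusted p = 2.51e-12) and 1.45-fold (-0.54 ± 0.11, adjusted p = 7.84e-06). *POLQ*, the polymerase of the alternative end-joining route that competes with recombination, fell 2.14-fold (-1.10 ± 0.17, adjusted p = 1.85e-10).

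The 4 checkpoint kinases split. *CHEK1*, the effector kinase of ATR in S phase, had normalized counts of 1593, 1433 and 1434 in DMSO and 359.9, 387 and 360.3 in abemaciclib, a 4.02-fold fall (-2.01 ± 0.08, adjusted p = 6.58e-139). *CHEK2*, the effector kinase of ATM, had 1868, 1799 and 1812 in DMSO and 2414, 2280.4 and 2345 in abemaciclib. All treated libraries were higher than all untreated ones, and *CHEK2* rose 1.28-fold (0.36 ± 0.05, adjusted p = 7.66e-11), the highest log2 fold change of the 40 genes. The upstream kinases did not pass. *ATM* had 635, 928 and 1110.0 in DMSO and 1031, 1175 and 1041 in abemaciclib (0.28 ± 0.15, adjusted p = 0.107). The count of 635 was that of replicate 1 of sgControl in DMSO, and the range of 928 to 1110.0 overlapped the treated range. *ATM* did not pass without replicate 1 either. Without replicate 3 of sgControl in DMSO, a fit that keeps replicate 1, its log2 fold change was 0.47 (adjusted p = 7.90e-04). *ATR* had 1579, 2121 and 2255 in DMSO and 1772, 1877 and 1579 in abemaciclib (-0.19 ± 0.12, adjusted p = 0.172), and without replicate 1 it was -0.33 (adjusted p = 9.23e-05). Both transcripts were lowest in replicate 1 within its group.

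**Figure D2:**
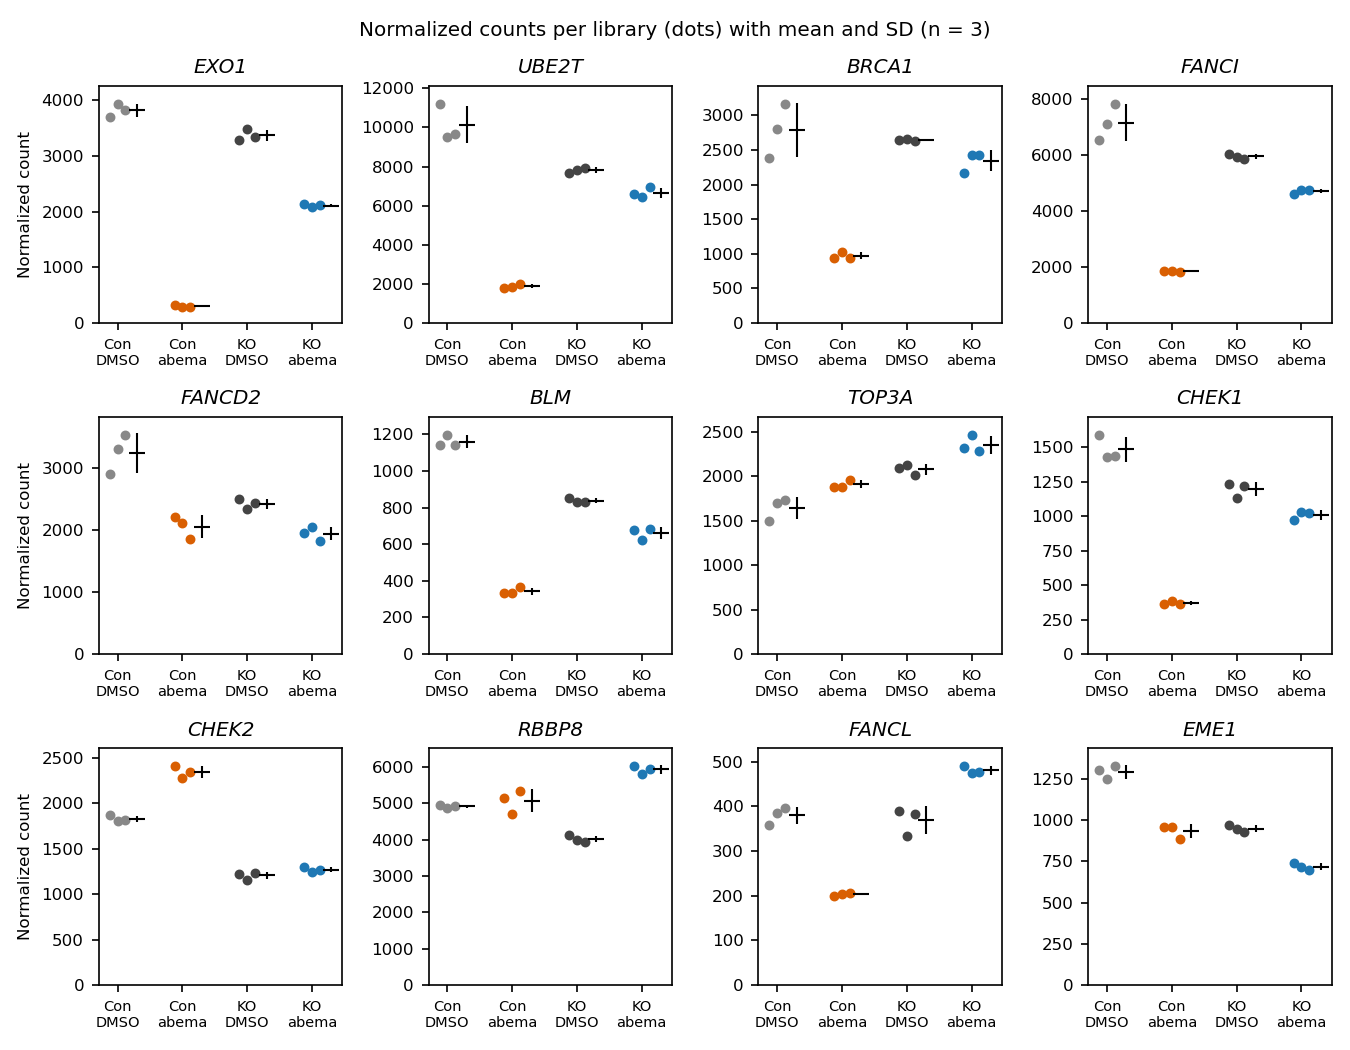
Normalized counts of 12 genes in each library (dots, 3 per group), with the mean and SD beside them (black). Con is sgControl, KO is *RB1* knockout and abema is abemaciclib; the vertical axes start at 0. *EXO1*, *UBE2T*, *BRCA1*, *FANCI*, *BLM*, *CHEK1* and *FANCL* are lowest in sgControl cells in abemaciclib, *CHEK2* is highest there, and *EME1* falls in both genotypes.

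Promoter sequence is shown for the 3 genes with the largest falls and the 2 with the highest log2 fold changes, because the set moved together and its genes are known as targets of cell cycle factors. Each is the 150 bases upstream of the RefSeq start on GRCh38.p14, written 5′ to 3′ along the gene, with capitals marking letters found in the search described after them. *EXO1* is at chr1:241848054-241848203, plus strand. *UBE2T* is at chr1:202341937-202342086, minus strand. *RAD51AP1* is at chr12:4538740-4538889, plus strand. *ATM* is at chr11:108222917-108223066, plus strand, and *CHEK2* is at chr22:28741821-28741970, minus strand. The log2 fold change of *ATM* in sgControl cells did not pass, as given above.
EXO1: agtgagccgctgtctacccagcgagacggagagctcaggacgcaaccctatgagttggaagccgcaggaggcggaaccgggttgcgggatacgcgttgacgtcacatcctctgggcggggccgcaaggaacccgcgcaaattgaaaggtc
UBE2T: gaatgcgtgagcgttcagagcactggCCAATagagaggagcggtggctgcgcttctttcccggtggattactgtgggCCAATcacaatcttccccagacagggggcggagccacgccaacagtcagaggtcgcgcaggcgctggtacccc
RAD51AP1: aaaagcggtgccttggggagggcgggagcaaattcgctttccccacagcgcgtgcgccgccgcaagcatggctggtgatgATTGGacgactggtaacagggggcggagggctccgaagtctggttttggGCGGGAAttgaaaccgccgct
ATM: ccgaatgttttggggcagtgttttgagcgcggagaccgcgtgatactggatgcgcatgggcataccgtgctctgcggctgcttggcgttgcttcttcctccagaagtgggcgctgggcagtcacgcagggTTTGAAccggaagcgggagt
CHEK2: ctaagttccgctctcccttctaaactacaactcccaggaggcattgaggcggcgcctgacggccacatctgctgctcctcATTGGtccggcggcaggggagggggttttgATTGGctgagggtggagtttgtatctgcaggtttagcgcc

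The search covered both strands of the RefSeq promoter window, which runs further upstream and past the start, for 35 of the 40 genes (*DNA2*, *FANCI*, *NBN*, *RAD54B* and *RMI2* were not in the table used). E2F letters were TTTCCCGC, TTTGGCGC, TTTCGCGC and TTTGCCGC. They were found in 5 of the 35 windows (14.3%), beside 3.33% of all 27305 windows and 5.61% of the 9320 windows of genes with a mean count of at least 100. *EXO1* was among the 5, with its match outside the stretch printed above. The same letters without the first T, which contain all matches of the longer form, were added after that result was seen. They were found in 19 of 35 (54.3%), beside 13.1% of all windows and 21.6% of those of expressed genes. *RAD51AP1* holds 1 such match, on the opposite strand, and the windows of *UBE2T*, *ATM* and *CHEK2* hold none. The median log2 fold change in sgControl cells was -1.10 over the 19 genes with a match and -0.41 over the 16 without one, and the ranges overlapped, from -3.67 to 0.21 and from -2.43 to 0.36. For the longer E2F form the medians were -1.16 with a match and -0.90 without. The cell cycle homology letters TTTGAA and TTTAAA were found in 7 of 35 windows (20%), beside 24.3% of all windows and 14.6% of those of expressed genes, with medians of -1.16 with a match and -0.83 without. CCAAT was found in 15 (42.9%), beside 35.7% and 37.2%, with medians of -1.02 and -0.83. A match of letters is a description and does not show that a factor binds there. Each gene had 1 window at 1 RefSeq start. Promoters at other starts were not searched, so a gene counted without a match may hold one elsewhere.

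In *RB1*-knockout cells the same treatment moved the median of the set little. Of the 40 genes, 12 fell and 5 rose, where 15.1% of all 18546 genes tested fell and 14.9% rose. None of the 40 changed by as much as 2-fold, but such changes were rare over all genes. Of the 18546 tested, 148 fell and 557 rose by at least 2-fold with an adjusted p under 0.05. The median log2 fold change of the 40 was -0.06, beside 0.02 over all genes tested. *EXO1* again had the largest change. Its normalized counts were 3293, 3486 and 3333 in DMSO and 2134, 2083 and 2113 in abemaciclib, without overlap, a 1.60-fold fall (-0.68 ± 0.05, adjusted p = 9.08e-33). *FANCB* in these cells fell 1.55-fold (-0.63 ± 0.22, adjusted p = 0.0172), from few counts, 109, 113 and 128 to 64.6, 71.6 and 89.8. That call was lost when any of 3 single knockout libraries was left out.

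The other genes that fell in knockout cells were *EME1* (-0.40 ± 0.07, adjusted p = 2.39e-07), *SLX4* (-0.37 ± 0.11, adjusted p = 0.00600), *RAD51C* (-0.34 ± 0.07, adjusted p = 3.32e-06), *BLM* (-0.34 ± 0.08, adjusted p = 6.87e-05) and *FANCI* (-0.34 ± 0.06, adjusted p = 2.06e-06). *FANCD2* (-0.32 ± 0.09, adjusted p = 0.00180), *XRCC3* (-0.31 ± 0.05, adjusted p = 1.37e-07), *RAD51AP1* (-0.28 ± 0.09, adjusted p = 0.00612), *CHEK1* (-0.25 ± 0.07, adjusted p = 0.00500) and *UBE2T* (-0.23 ± 0.07, adjusted p = 0.00618) complete the 12. That of *RAD51AP1* was lost without replicate 3 of knockout cells in abemaciclib (-0.22, adjusted p = 0.0644). All of these were also lower with abemaciclib in sgControl cells. *BRCA1*, *BRCA2*, *BARD1* and *BRIP1* did not pass in knockout cells, with log2 fold changes between -0.17 and 0.08. Leaving out replicate 1 of sgControl in DMSO, which enters this comparison only through shared dispersions and size factors, gave 15 genes lower, *BRCA1*, *RMI2* and *POLQ* being added. Over all genes it gave 3445 lower and 3246 higher, beside 2800 and 2771 with all libraries.

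Of the 5 genes that rose in knockout cells, *RBBP8* rose most. Its normalized counts were 4126, 3992 and 3947 in DMSO and 6042, 5816 and 5946 in abemaciclib, every treated library being far above every untreated one, and the rise was 1.48-fold (0.56 ± 0.05, adjusted p = 2.35e-23). *PALB2* had 1654, 1452 and 1679 in DMSO and 2028, 2138 and 2088 in abemaciclib, a 1.31-fold rise (0.39 ± 0.08, adjusted p = 1.06e-05). *FANCL* rose 1.30-fold (0.38 ± 0.10, adjusted p = 8.09e-04) and *FANCF* 1.15-fold (0.20 ± 0.06, adjusted p = 0.00428). *PALB2*, *FANCL* and *FANCF* had each fallen in sgControl cells, *FANCF* within the limits given above. *TOP3A* rose 1.13-fold (0.18 ± 0.07, adjusted p = 0.0273), a call lost when any of 4 single knockout libraries was left out and with size factors from total counts.

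**Figure D3:**
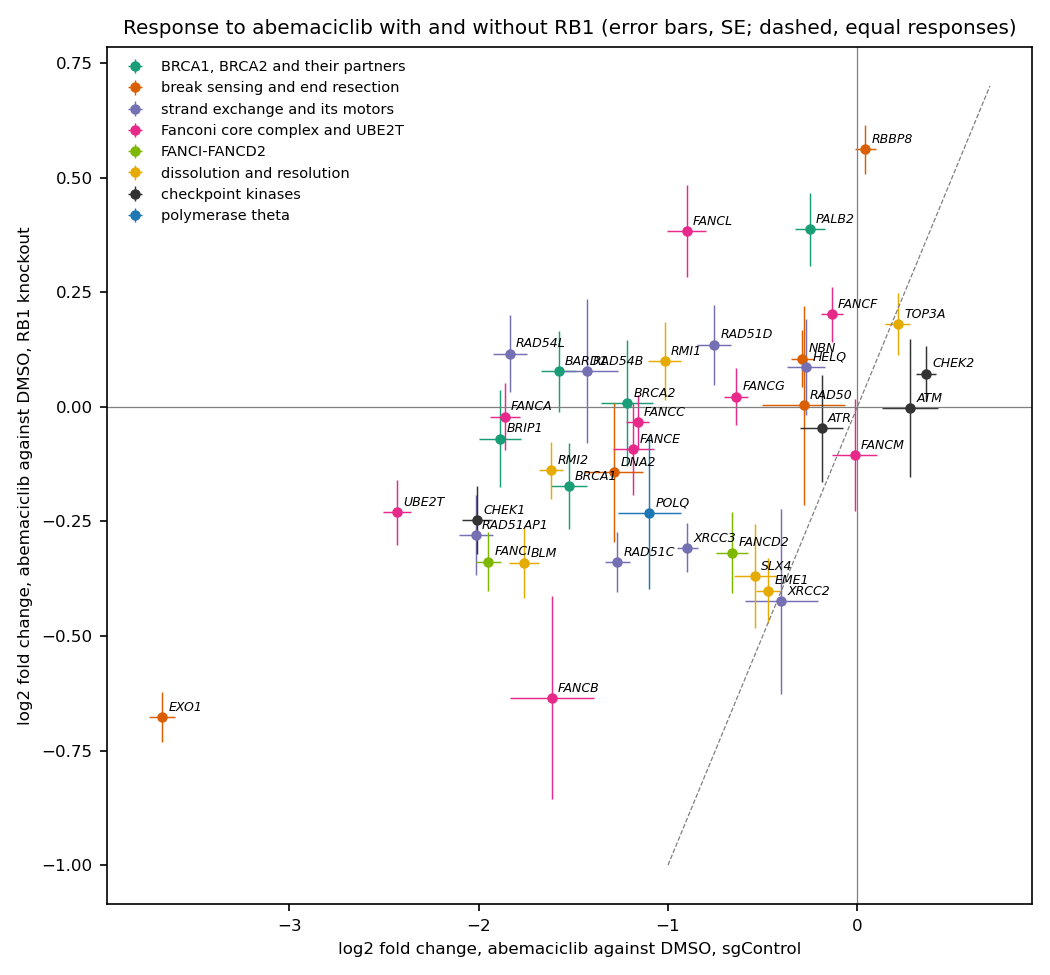
Log2 fold change with abemaciclib against DMSO in sgControl cells (horizontal axis) and in *RB1*-knockout cells (vertical axis) for the 40 genes, with SE bars and 1 colour per role. The dashed line marks equal responses. *EXO1* is far to the left at -3.67 and -0.68, most genes lie left of the line near 0 on the vertical axis, and *EME1*, *SLX4*, *XRCC2* and *TOP3A* lie near the line.

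The difference between the responses was tested as an interaction, the log2 fold change in knockout cells minus that in sgControl cells. It shares its libraries with both responses and is no separate evidence of either. It was positive for 31 of the 40 genes and negative for 1, where 21.1% of all 20932 genes tested were positive and 20.3% negative. The median was 0.95, beside 0.03 over all genes tested. All 5 genes of the *BRCA1* and *BRCA2* group were positive, as were 8 of the 9 of the Fanconi core group, 7 of 8 of strand exchange, 4 of 5 of sensing and resection, and *FANCI* with *FANCD2*. Among the 6 genes of dissolution and resolution it was 3, *BLM*, *RMI1* and *RMI2*. The interaction was 2.99 ± 0.09 for *EXO1* (adjusted p = 2.09e-251), 2.20 ± 0.10 for *UBE2T*, 1.95 ± 0.12 for *RAD54L* and 1.84 ± 0.11 for *FANCA*. For *BRCA1* it was 1.35 ± 0.13 (adjusted p = 1.73e-22).

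For 8 genes the difference did not pass, and for 1 it was negative. *EME1* fell in both genotypes and its interaction was 0.07 ± 0.10 (adjusted p = 0.611), with a 95% interval of -0.12 to 0.26. *TOP3A* had an interaction of -0.03 ± 0.10 and an interval of -0.22 to 0.15. For *SLX4* the interaction was 0.17 ± 0.16 (adjusted p = 0.438), but without replicate 1 of sgControl in DMSO it was 0.30 and passed (adjusted p = 0.0285). *RAD50* and *ATR* did the same, with 0.57 (adjusted p = 0.00639) and 0.29 (adjusted p = 0.0205) without that library. The negative interaction was that of *CHEK2* (-0.29 ± 0.08, adjusted p = 0.00111), whose counts in knockout cells were 1226, 1159 and 1236 in DMSO and 1297, 1248 and 1261 in abemaciclib. It was lost with size factors from total counts (-0.15, adjusted p = 0.158). The 72 neighbouring genes of *CHEK2* had median responses of 0.32 in sgControl cells and -0.03 in knockout cells. The part of this regional difference in the interaction of *CHEK2* was not tested. Without replicate 3 of sgControl in DMSO, *ATM* passed as well (-0.47, adjusted p = 0.0185), but without replicate 1 it did not.

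Genotype alone, compared in DMSO, moved the set modestly. In *RB1*-knockout cells 13 of the 40 genes were lower and 4 were higher than in sgControl cells, where 18.2% of all 16755 genes tested were lower and 19.2% higher. The median log2 fold change was -0.17, beside -0.01 over all genes tested. Without replicate 1 of sgControl in DMSO, 20 of the 40 were lower and 3 higher. Over all genes, 3159 were lower and 3440 higher without it, beside 3045 and 3214 with it. *BRCA1*, *BRCA2*, *PALB2*, *DNA2*, *FANCM*, *ATM*, *ATR* and *POLQ* passed only without that library and *RAD51C* and *SLX4* only with it, so the count depends on it. Without replicate 3 of the same group, 13 of the 40 were lower and 4 higher, beside 3057 and 3077 over all genes.

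The largest difference in DMSO was that of *CHEK2*, which was 1.51-fold lower in knockout cells (-0.60 ± 0.06, adjusted p = 7.97e-24). Its counts of 1868, 1799 and 1812 in sgControl cells and 1226, 1159 and 1236 in knockout cells did not overlap. *BLM* (-0.47 ± 0.07, adjusted p = 8.75e-10), *RAD51AP1* (-0.47 ± 0.08, adjusted p = 2.70e-07), *RAD54L* (-0.45 ± 0.08, adjusted p = 4.85e-07), *EME1* (-0.45 ± 0.07, adjusted p = 2.21e-10) and *FANCD2* (-0.42 ± 0.09, adjusted p = 8.05e-06) followed. Smaller values, between -0.37 and -0.18, were found for *UBE2T*, *CHEK1*, *RBBP8*, *FANCI*, *NBN*, *RAD51C* and *EXO1*. The 4 genes that were higher in knockout cells were *TOP3A* (0.33 ± 0.07, adjusted p = 6.05e-06), *SLX4* (0.32 ± 0.11, adjusted p = 0.0144), *RAD51D* (0.30 ± 0.09, adjusted p = 0.00295) and *FANCA* (0.29 ± 0.07, adjusted p = 4.09e-04). The calls of *SLX4* and *RAD51C* were lost when any of 3 and of 4 single libraries was left out, and that of *NBN* without replicate 2 of sgControl in DMSO (adjusted p = 0.0629). With size factors from total counts those of *SLX4* (adjusted p = 0.0789) and *RAD51D* (adjusted p = 0.055) were lost, and with only the DMSO libraries fitted those of *RAD51C* (adjusted p = 0.0682) and *NBN* (adjusted p = 0.0518). *FANCA* had 1688, 1897 and 1916 in sgControl cells and 2239, 2293 and 2192 in knockout cells, without overlap.

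Neighbouring genes were read beside these differences. The genes within 5 Mb of each of the 40, averaging 100 or more normalized counts, had median log2 differences between genotypes in DMSO of -0.16 to 0.14. In DMSO *BRCA2*, on chromosome 13 as *RB1* is, had a median of -0.14 over 26 neighbours, while the median over the 44 neighbours of *RB1* was -0.76. Neighbour medians spread more widely in other comparisons. Between genotypes in abemaciclib they ran from -0.24 to 0.40. For the abemaciclib response of sgControl cells they ran from -0.53, beside *HELQ*, to 0.32, beside *CHEK2*. In knockout cells they ran from -0.16 to 0.16. The part of regional shifts in the values of single genes was not tested.

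In abemaciclib the genotypes differed widely. Of the 40 genes, 32 were higher and 4 lower in knockout cells, where 28.5% of all 21529 genes tested were higher and 27.4% lower, and the median log2 difference was 0.80, beside 0.02 over all genes. *EXO1* was 7.03-fold higher in knockout cells (2.81 ± 0.07), *FANCA* 4.37-fold (2.13 ± 0.08, adjusted p = 2.12e-157), *UBE2T* 3.55-fold (1.83 ± 0.07, adjusted p = 4.27e-137) and *BRIP1* 3.51-fold (1.81 ± 0.11, adjusted p = 1.68e-58). *BRCA1* and *BRCA2* were 2.42-fold and 1.91-fold higher. The 4 genes that were lower were *CHEK2* (-0.89 ± 0.06, adjusted p = 3.10e-55), *ATM* (-0.45 ± 0.15, adjusted p = 0.00533), *EME1* (-0.38 ± 0.07, adjusted p = 1.77e-07) and *FANCM* (-0.34 ± 0.12, adjusted p = 0.0100). *CHEK2* counts of 2414, 2280.4 and 2345 in sgControl cells and 1297, 1248 and 1261 in knockout cells lay far apart. The calls of *ATM* and *FANCM* were lost with size factors from total counts, and that of *FANCM* also without replicate 2 of knockout cells in abemaciclib (adjusted p = 0.0672). Among the genes called higher, *FANCB* was lost with only the abemaciclib libraries fitted (adjusted p = 0.055). Its call was also lost when either of 2 single libraries was left out (adjusted p of 0.149 and 0.151).

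The pair modified by the core complex is given side by side. *FANCI* was 2.54-fold higher in knockout cells in abemaciclib (1.34 ± 0.07, adjusted p = 1.72e-90). *FANCD2* had 2206, 2114 and 1853 in sgControl cells and 1954, 2046 and 1834 in knockout cells, which overlapped, and a log2 difference of -0.08 ± 0.09 with a 95% interval of -0.25 to 0.09. Its level was lower in knockout cells already in DMSO, as given above. The other genes that did not pass were *ATR*, *XRCC2* and *HELQ*.

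**Figure D4:**
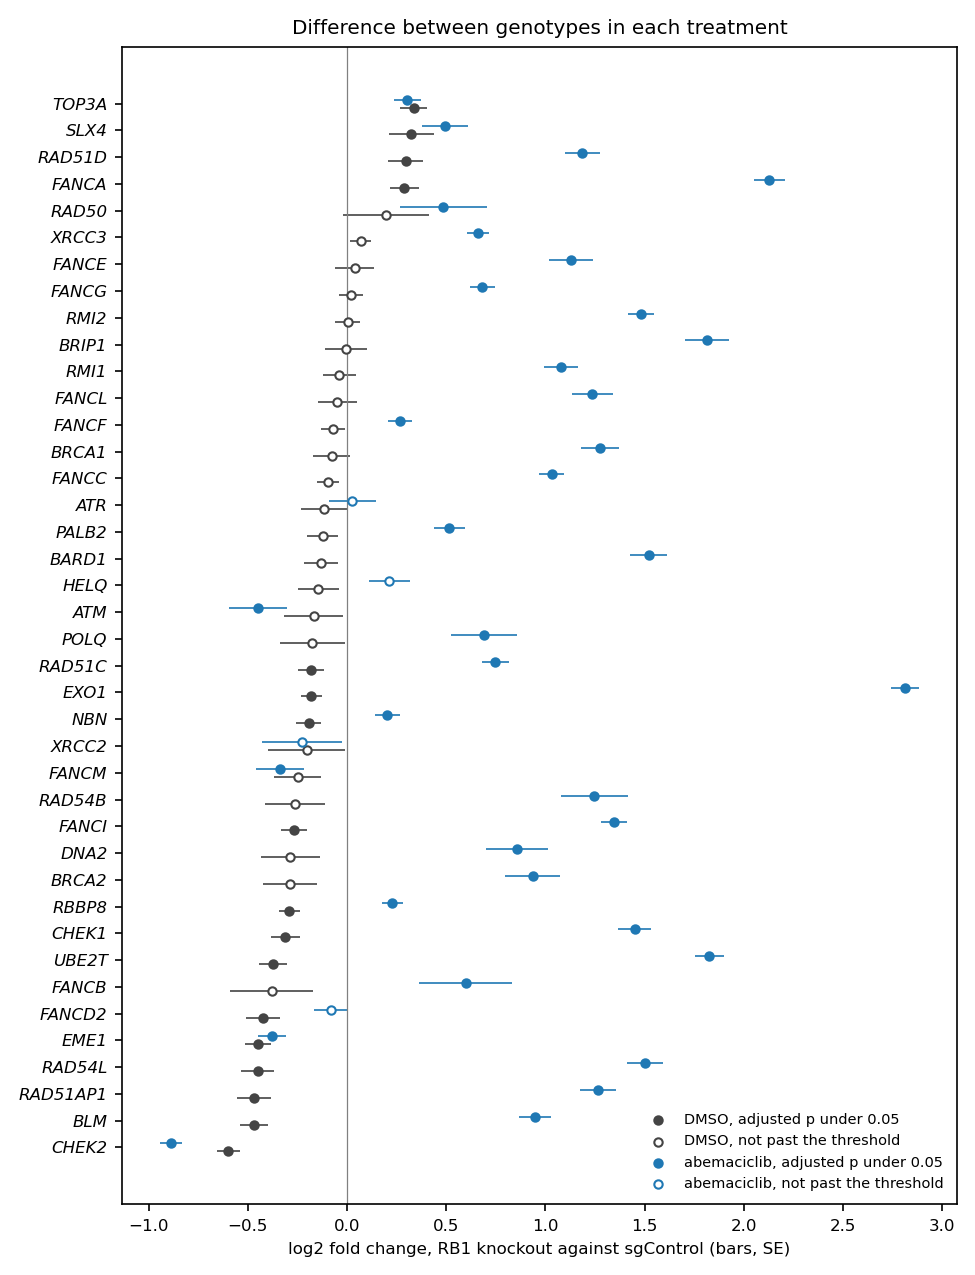
Log2 fold change of *RB1* knockout against sgControl for the 40 genes, ordered by the value in DMSO (dark) and shown beside the value in abemaciclib (blue), with SE bars. Filled points have an adjusted p under 0.05. In DMSO all values lie between -0.60 and 0.33, while in abemaciclib they reach 2.81 for *EXO1* and -0.89 for *CHEK2*.

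Related genes outside the set were read from 3 lists. Among 37 other genes of recombination and crosslink repair, 16 fell and 6 rose with abemaciclib in sgControl cells, beside 24.8% and 25.0% of all genes tested, with a median log2 fold change of -0.11. The largest falls were those of *MMS22L*, which acts in recombination at stalled forks (-1.69 ± 0.12, adjusted p = 1.20e-40), and *SFR1*, a recombinase cofactor (-1.50 ± 0.14, adjusted p = 1.55e-24). The largest rises were those of *EME2* (1.83 ± 0.11, adjusted p = 3.13e-58), an alternative partner to EME1 in the MUS81 nuclease, and *FAAP100*, a Fanconi core subunit (0.67 ± 0.05, adjusted p = 3.84e-36). *EME2* had 839.7, 1074 and 1186 in DMSO and 3272, 4042 and 3716 in abemaciclib. Every treated library was above every untreated one, in contrast to the fall of *EME1*. *MRPS34* and *SPSB3* cover 33% of the exon bases of *EME2* on the opposite strand. In knockout cells *EME2* rose 1.33-fold (0.41 ± 0.11, adjusted p = 0.00190) and *FAAP100* did not pass (-0.11 ± 0.05, adjusted p = 0.134).

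Of 18 partners of ATM and ATR, 15 fell and none rose in sgControl cells, beside 24.8% and 25.0% of all genes tested. Their median was -1.02. *CLSPN*, the adaptor that brings CHEK1 to ATR, had counts of 2193, 2531 and 2567 in DMSO and 131, 143 and 117 in abemaciclib, without overlap, a log2 fold change of -4.22 ± 0.10. *H2AX*, the histone variant phosphorylated at breaks, changed by -2.45 ± 0.09 (adjusted p = 8.93e-169). Among 18 genes of end joining, which seals breaks without a template, 11 fell and 3 rose, beside the same shares, with a median of -0.39. There *DCLRE1C* (-1.27 ± 0.11, adjusted p = 5.79e-31) and *XRCC5* (-0.98 ± 0.07, adjusted p = 2.41e-49) fell most, and *LIG4* (0.47 ± 0.11, adjusted p = 3.46e-05) and *TP53BP1* (0.36 ± 0.08, adjusted p = 3.03e-05) rose most. In knockout cells 8 fell and 6 rose in the first list, 4 fell in the second, and 6 fell and 3 rose in the third, beside 15.1% and 14.9% of all genes tested. The interaction was positive for 13, 15 and 8 genes, beside 21.1% of all genes tested, and negative for 9, none and 2, beside 20.3%.

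**Figure D5:**
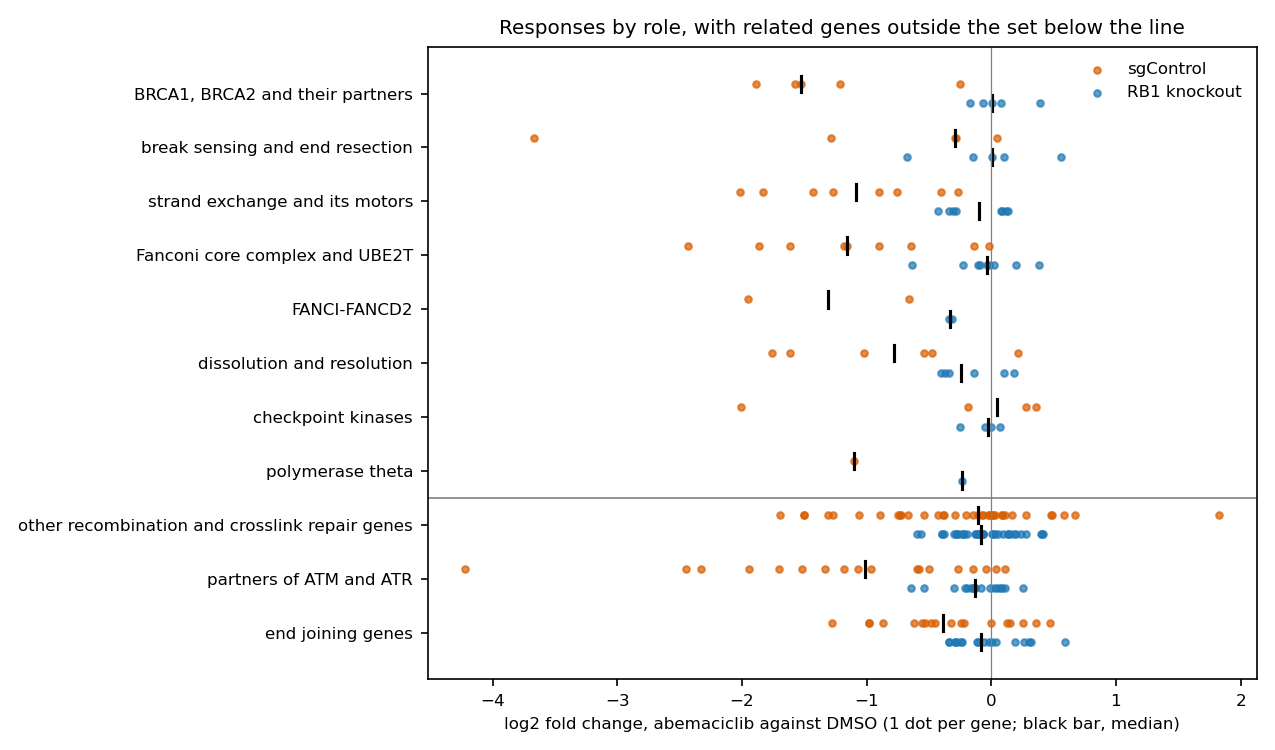
Log2 fold change with abemaciclib for each gene (dots) in sgControl cells (orange) and *RB1*-knockout cells (blue), by role, with the median of each group as a black bar. The 8 role groups of the 40 genes are above the grey line and 3 lists of related genes below it. Orange medians reach -1.52 for *BRCA1*, *BRCA2* and their partners and are 0.04 for the checkpoint kinases, while no blue median is below -0.33.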

How the data were processed

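RNA was sequenced from 12 libraries, 3 in each of 4 groups taken from the sample titles. The authors deposited raw read counts per gene, not normalized and with no pooled replicates. The submitters' processing notes name STAR 2.7.5b, featureCounts 2.0.1 and the build hg38. The labels name a directional whole-transcript kit, the study's general methods a 3′ kit, so whether counts scale with length, and whether strand was used in counting, is unsure. Of the 40 genes, 23 overlap exons of a gene on the opposite strand and 9 on the same strand (GENCODE release 44). The 44 rows without a symbol were left out, and their share of counts rounded to 0%. Table columns without a sample numbered 0. No replicates agreed within sampling noise (chi-square of at least 3.49 per gene).

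DESeq2 1.42.0 in R 4.3.3 was fitted once to all 12 libraries with a term for group, median-of-ratios size factors and no shrinkage, DESeq2 being the tool the study names. Wald tests were two-sided. Benjamini-Hochberg adjustment covered all genes left by independent filtering, and an adjusted p under 0.05 was called. This model gave each p-value printed without another tool's name. Dividing counts by size factors gave normalized counts. Errors of levels are SD over 3 libraries, errors of log2 fold changes are SE, and intervals cover 95%. Scripts were tested on simulated data with known changes. Alternatives were edgeR 4.0.16 (quasi-likelihood, TMM), total-count size factors, a filter of at least 10 counts in at least 3 libraries, fits of only the groups compared, the replicate number as a block, and leaving out each library. Promoter sequences are from RefSeq. What a replicate number shares is not in the labels. Deviations of same-numbered libraries correlated in every pair between sgControl and knockout in abemaciclib (0.15, 0.26 and 0.11), where the block changed no call among the 40 genes, but not in every pair elsewhere.

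All 40 genes were to be named, and of each related list up to 2 called genes per direction by the size of the sgControl response, plus *RB1* and *MKI67*. The genes, role groups and lists were chosen with earlier results of these data known.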

Additional observations from a re-analysis of the deposited data

Results flagged for a closer look

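For 32 of the 40 genes the test of the difference itself set the abemaciclib responses of the genotypes apart. Values are interactions, the log2 fold change in *RB1*-knockout cells minus that in sgControl cells. In sensing and resection they were 2.99 for *EXO1*, 1.14 for *DNA2*, 0.52 for *RBBP8* and 0.40 for *NBN*. Among *BRCA1*, *BRCA2* and their partners they were 1.82 for *BRIP1*, 1.65 for *BARD1*, 1.35 for *BRCA1*, 1.22 for *BRCA2* and 0.64 for *PALB2*. For strand exchange the values were 1.95 for *RAD54L*, 1.73 for *RAD51AP1*, 1.51 for *RAD54B*, 0.93 for *RAD51C*, 0.89 for *RAD51D*, 0.59 for *XRCC3* and 0.36 for *HELQ*.

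In the Fanconi core group the interaction was 2.20 for *UBE2T*, 1.84 for *FANCA*, 1.29 for *FANCL*, 1.13 for *FANCC*, 1.09 for *FANCE*, 0.98 for *FANCB*, 0.66 for *FANCG* and 0.34 for *FANCF*. It was 1.61 for *FANCI* and 0.34 for *FANCD2*. The dissolution genes had 1.48 for *RMI2*, 1.42 for *BLM* and 1.12 for *RMI1*, and *POLQ* had 0.87. *CHEK1* and *CHEK2* had interactions of opposite sign, 1.76 and -0.29. The interactions of *HELQ* and *FANCD2* were lost when any of 7 and of 2 single libraries was left out, and that of *HELQ* also with the replicate block.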

How the results depend on the processing

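No value of the 40 genes changed sign while called, under any alternative run. The counts given here are of genes out of 40. With size factors from total counts, which moved the median of all genes by -0.12 in the sgControl response, 0.14 in the interaction and 0.11 between genotypes in abemaciclib, genes higher in the sgControl response went from 2 to 1, genes with a negative interaction from 1 to 0, genes higher in knockout cells in DMSO from 4 to 2, and genes lower in knockout cells in abemaciclib from 4 to 2. Fitting only the groups compared gave 1 gene higher in the sgControl response. Leaving out 1 library at a time gave 12 to 20 genes lower in knockout cells in DMSO, 20 being the count without replicate 1 of sgControl in DMSO, and 1 to 2 genes with a negative interaction, 2 being the count without replicate 3 of sgControl in DMSO. In the sgControl response it gave 30 to 34 genes lower and 2 to 3 higher, and in the interaction 29 to 34 positive. With all alternatives but the left-out libraries, those counts were 31 to 34, 1 to 2 and 30 to 31.

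Over single genes and comparisons, 67 values lost their call and 30 gained one, while 3263 kept their side of the threshold. With the replicate block, 31 genes fell and 2 rose in the sgControl response, and 30 interactions were positive. The block changed the calls of *FANCF* in sgControl cells (adjusted p = 0.0864) and of *HELQ* in the interaction (adjusted p = 0.0628) and no other call. Every library correlated best with its own number only between genotypes in abemaciclib. *RAD50* between genotypes in abemaciclib (0.49 ± 0.22, adjusted p = 0.046) was lost in edgeR (adjusted p = 0.0514), with total-count size factors (0.0784), with the low-count filter (0.107) and in 9 of 12 left-out libraries. Depth limits *FANCB*, *RAD54B* and *XRCC2* most, with as few as 44, 71 and 114 raw counts in a library.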

Other observations

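The tilt with transcript length was not confined to 1 library. Over the same genes, averaging 100 or more normalized counts, Spearman's rho between a library's log2 deviation from the others of its group and transcript length was 0.55 and 0.64 in replicates 2 and 3 of sgControl in DMSO, whose reference contains replicate 1. In the other 3 groups it ran from -0.31 to 0.49.

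In knockout cells *LYZ*, read here as a leukocyte marker, had 16.4, 39.7 and 19.3 normalized counts in DMSO and 6.79, 22.1 and 16.1 in abemaciclib. Every sgControl library in abemaciclib was above every other library.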
